A study of Mus musculus with 12 samples.

Results

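Retinal cells that had received AAV-Olig1 were compared with cells that had received AAV-GFP, 7 days after optic nerve crush, over every gene with enough reads to test. The comparison uses 6 of the 12 libraries of the study, chosen by their labels: 3 pools of cells from eyes injected with AAV-Olig1 (Olig1) and 3 from eyes injected with AAV-GFP (GFP). All were adult male wild-type mice, all had the crush 7 days before collection, and all carry a label of 14 days since virus injection, at both collection days. An AAV2 virus was put into the vitreous, cells were separated with beads against CD90.2, and 10 to 20 fluorescent cells per pool (the labels differ on the number) were picked one by one with a Unipick device and amplified with the SMART-Seq HT kit. The labels name neither the promoter of the virus nor the animals behind each pool, so the spread that each p-value rests on is that among pools and may be technical. The other 6 libraries, collected 14 days after the crush, enter the model fit and are shown beside the day 7 values.

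Olig1 is a basic helix-loop-helix transcription factor, a protein that binds short DNA letters called E-boxes with a partner of its family, and it is known from the oligodendrocyte lineage. Retinal ganglion cells are the neurons whose axons form the optic nerve. Crushing the nerve cuts these axons, and most of the cells then die or shrink without regrowth, while injured neurons are known to switch on stress kinases, immediate early genes and a set of genes linked to axon growth. Rods, cones and bipolar cells, which pass the light signal toward the ganglion cells through ribbon synapses, are not cut by the injury.

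Day 7 totals ran from 12534515 to 18770886 counts per library, with 14123 to 17244 genes detected. A count of 0 allows up to 0.160 to 0.239 CPM (a count divided by the library total and scaled to 1000000), a limit that covers counting error only. Marker genes of retinal cell types moved with the groups. Summed ganglion cell markers came to 59.5 to 253 CPM in GFP libraries and 1873 to 3962 CPM in Olig1 libraries, and amacrine markers to 383 to 854 and 1812 to 4290.3 CPM. Rod markers came to 13207 to 62491 and 641 to 1403 CPM, and cone markers to 1404 to 1941 and 20.6 to 109 CPM. Bipolar markers came to 1489 to 2806 and 281 to 537 CPM. Gnb3 held most of the cone sum in GFP replicate 1 (1768 of 1881 CPM). There Gnat2 read 94.6 CPM, but Arr3 read 0.107 CPM and Opn1sw 0. Of 8 tested cone markers, 0 were called, against 0.227% of all genes tested. In 3 of the 8 every Olig1 library was below every GFP library, which held for 9.01% of all genes tested. The label is ganglion cells, and their markers were read unevenly in the GFP libraries. Slc17a6, which loads glutamate into the synaptic vesicles of ganglion cells, read 0.107, 0 and 0 CPM with GFP and 92.6, 30.8 and 36 CPM with Olig1. Rbpms read 0.0533, 76 and 2.52 CPM with GFP and 55.1, 568 and 60.3 CPM with Olig1, and its groups overlapped. Of the 16 ganglion cell markers, 2 had 0 counts in all 6 libraries. Of the 12 ganglion cell markers tested, 12 had positive values and 0 were called. In 9 of the 12 every Olig1 library was above every GFP library, which held for 9.4% of all genes tested. Sums of T cell and neutrophil markers were at or near 0. In pools of cells, fewer cells of a type and less RNA per cell cannot be told apart.

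Olig1 replicates 1 and 2 shared part of their profile. Of the 3128 genes at or above 50 CPM in replicate 1, replicate 2 held 0 at under 0.05 of that level, and 1759 genes (56.2%) lay between 0.15 and 0.3 of it. In the other 131 ordered pairs of the study's libraries, at least 14 genes lay under 0.05, and no more than 20.6% lay between 0.15 and 0.3. For 17 genes at or above 20 CPM in replicate 1 and under 1 CPM in the other 10 libraries, the level in replicate 2 was a median of 0.207 of that in replicate 1, and 0 of the 17 were at 0. The plot of these libraries against each other shows the edge at 0.2 of the replicate 1 level. From replicate 2 to replicate 3 the same measure gave a median of 0.0250 (97 genes, 1 at 0). Among GFP libraries, it gave 0.00926 from replicate 1 to 2 (21 genes, 1 at 0) and 0.0242 from replicate 2 to 3 (28 genes, 0 at 0). From GFP replicate 3 to Olig1 replicate 1 it gave 0.00958 (10 genes, 0 at 0). Because replicates 1 and 2 share this much, calls are given below with replicate 2 left out and with replicates 1 and 2 summed as 1 library, the second of these chosen after seeing the data. Of the 21 genes called higher, 5 stood in replicate 2 at 0.15 to 0.3 of replicate 1, among them Olig1 (0.242), Snhg11 (0.215), Meg3 (0.276) and Mmp12 (0.223). Of the genes called lower, Mfge8 did (0.225). Low values in one library of a gene that is high in another are read with these shares in mind.

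**Figure D1:**
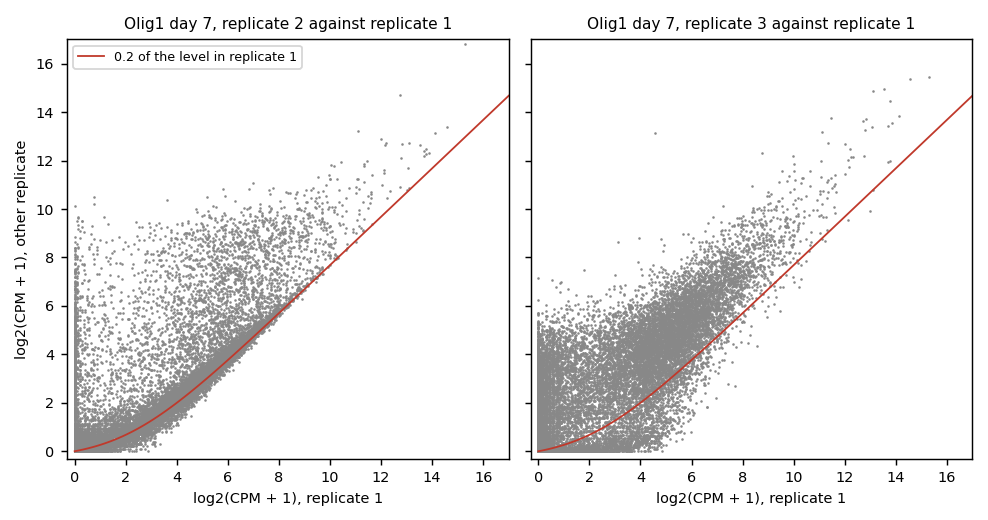
Each point is 1 gene, plotted as log2(CPM + 1) in Olig1 day 7 replicate 1 (x axis) and in replicate 2 (left) or replicate 3 (right), with the red line at 0.2 of the replicate 1 level. In replicate 2, 0 of 3128 genes at or above 50 CPM in replicate 1 fell under 0.05 of its level, and in replicate 3, 25 did.

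Olig1 itself was read first, as a check of the labels. Olig1 (ENSMUSG00000046160, chr16:91269772-91271933) stood at 0.320, 0 and 0.351 CPM in the 3 GFP libraries and at 1029, 249 and 723 CPM in the 3 Olig1 libraries. Every Olig1 library was far above every GFP library, with replicate 2 at 0.242 of replicate 1, inside the range of 0.15 to 0.3 that these libraries share, so its reading is not a check apart from replicate 1. Olig1 rose by 11.62 ± 1.59 on the log2 scale (± SE, edgeR adjusted p = 0.0113), with 0.0297 when replicates 1 and 2 were summed. The counts cannot part the virus transcript from that of the mouse gene. A gene annotated on the other strand, Gm15966, shares 157 exon bases with Olig1 and had 0 counts.

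Of the 14985 genes tested, 34 (0.227%) were called at an adjusted p under 0.05, 21 higher (0.14%) and 13 lower (0.0868%) with Olig1. The higher genes included Stmn1 and Kif5a of the axonal cytoskeleton list, Cplx2 of conventional vesicle release, Gad1 of GABA signalling, Impact of the stress response list, Mmp12, Gstm6 and Olig1 itself. The lower genes included Nxnl1, Nxnl2, Rpgrip1 and Guca1b of the photoreceptor support list, the bipolar channel gene Trpm1, and Sgk1, Sparc and Mfge8. In all 34 genes the 3 libraries of one group lay apart from the 3 of the other, which held for 18.4% of all genes tested (9.4% with Olig1 higher and 9.01% with it lower). The smallest change among them was 2.94 on the log2 scale (Sparc), with medians of 7.24 for higher and -5.22 for lower genes. The median over all genes was -0.03, with quartiles of -1.37 and 1.30 and a median SE of 1.83. Called genes lay where counts were high: 0 of 1139 genes below a mean of 1 CPM, 0 of 5495 between 1 and 10, 14 of 6901 between 10 and 100, 18 of 1359 in the band above that and 2 of the 91 most abundant. At an unadjusted p under 0.05, 2090 genes (13.9%) passed, of which 64.2% were higher (8.95% of all genes). DESeq2 called 930 genes (6.73%) and limma voom with sample weights 409 (2.73%), and each of these held 31 of the 34.

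**Figure D2:**
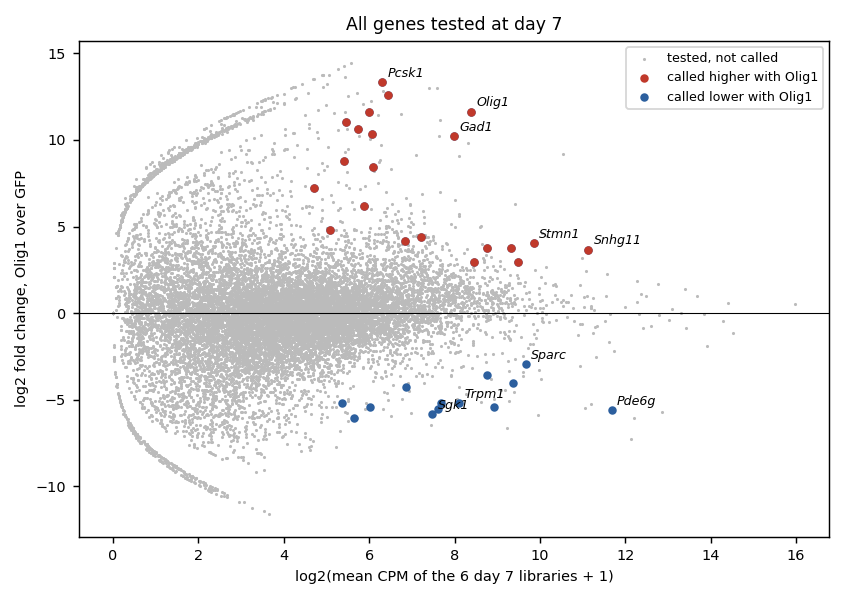
Each point is 1 of the 14985 genes tested, with its mean level over the 6 day 7 libraries on the x axis (log2 of CPM + 1) and its log2 fold change of Olig1 over GFP on the y axis. The 34 called genes (21 red, 13 blue) stand at changes of at least 2.94, and the curved rims are genes with no reads, or nearly none, in one group, whose fitted fold changes are no measured ratios.

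The calls depend on single libraries. Left out in turn, GFP replicates 1, 2 and 3 left 1, 9 and 2 genes called, and Olig1 replicates 1, 2 and 3 left 18, 10 and 58. Of the 34 genes, 1, 9, 2, 14, 9 and 26 stayed called in these fits. Without replicate 3 of both groups 0 were called (smallest adjusted p = 0.0566, 2220 genes at an unadjusted p under 0.05). With Olig1 replicates 1 and 2 summed, 10 genes were called, 9 of them among the 34. Trpm1 alone was called in all 6 fits that left out 1 library. All 34 kept their direction in each of the 16 alternative fits. Their groups lay apart in the same libraries, so a kept direction is no separate support. The genes called both without Olig1 replicate 2 and with replicates 1 and 2 summed numbered 8: Olig1, Stmn1, Impact, Snhg11 and Meg3 among the higher, and Trpm1, Sgk1 and Nxnl2 among the lower. Gad1 was called in the summed fit only, C1ql2 without replicate 2 only. The other 24 missed the threshold in both of those fits, and those described below are given as called in the fit of all libraries.

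**Figure D3:**
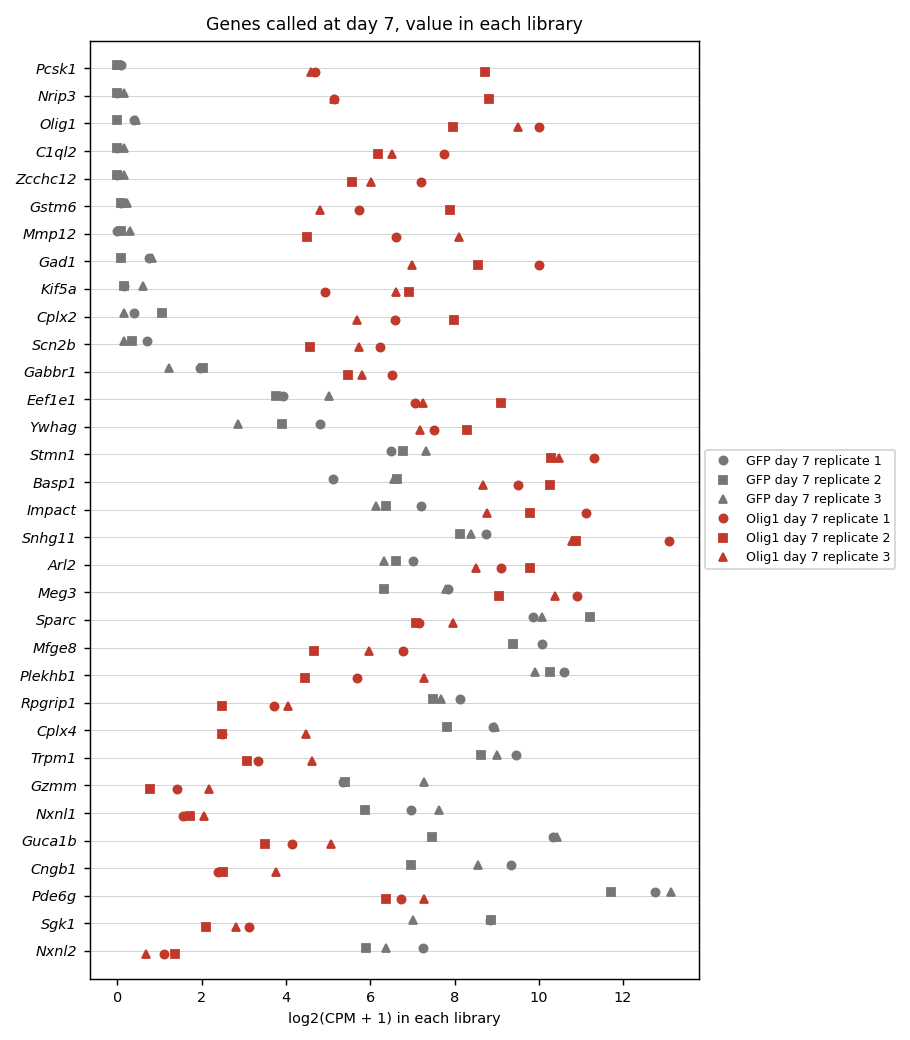
Rows are 33 of the 34 genes called at day 7, ordered by log2 fold change, with each library's log2(CPM + 1) on the x axis (grey GFP, red Olig1, marker shape by replicate). The 3 libraries of a group lie apart from the 3 of the other in every row, and the 9 higher genes that peak in Olig1 replicate 2 (red squares) include Pcsk1 and Nrip3, where the other 2 Olig1 libraries lie well below.

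Promoter sequences are shown for Sgk1 and Meg3, a lower and a higher gene among those 8 whose 250 bases before the first start listed by RefSeq meet no annotated exon, with E-box letters in capitals. Both are from the RefSeq table for GRCm38.p6, on the plus strand, written 5′ to 3′:
Sgk1, chr10:21881934-21882183: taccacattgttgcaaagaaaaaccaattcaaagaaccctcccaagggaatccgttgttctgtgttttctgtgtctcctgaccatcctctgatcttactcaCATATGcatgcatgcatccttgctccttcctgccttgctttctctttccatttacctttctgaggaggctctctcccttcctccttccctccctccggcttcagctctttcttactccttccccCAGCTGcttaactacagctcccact
Meg3, chr12:109540746-109540995: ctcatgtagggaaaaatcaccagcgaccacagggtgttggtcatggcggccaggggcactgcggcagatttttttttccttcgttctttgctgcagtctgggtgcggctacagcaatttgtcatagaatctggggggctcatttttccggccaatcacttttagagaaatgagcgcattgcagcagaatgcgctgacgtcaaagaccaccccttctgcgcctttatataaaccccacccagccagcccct
The letters searched were CAGCTG and CATATG, each its own reverse complement, so that 1 search covers both strands. The window shown for Sgk1 holds 1 of each and that for Meg3 neither. RefSeq lists 5 other windows for Sgk1 and 1 for Meg3, in which neither string was found, and the shares below use the first window listed for each gene. CAGCTG was in the window of 2 of 15 higher genes with a window in the table (13.3%; Snhg11 and Cplx2), in 2 of 10 lower genes (20%; Sgk1 and Sparc) and in 11.6% of 10333 tested genes. CATATG was in 0 of 15, 1 of 10 and 1.5% of these. A match is a string of letters and not a site of binding.

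Among axon and microtubule genes, 4 rose: Stmn1, Kif5a, Basp1 and Arl2. Stmn1 encodes stathmin, which binds tubulin dimers and takes microtubules apart. Stmn1 (ENSMUSG00000028832, chr4:134468320-134473843) read 89.3, 109 and 158 CPM with GFP and 2528, 1255 and 1419 CPM with Olig1, a rise of 4.03 ± 0.64 (log2, edgeR adjusted p = 0.0178, 0.0255 without Olig1 replicate 2). All Olig1 libraries were several times above the highest GFP library. Kif5a, a neuronal kinesin heavy chain that carries cargo down the axon, went from 0.107, 0.109 and 0.527 CPM to 29.6, 121 and 96.2 CPM, a rise of 8.76 ± 1.35 (adjusted p = 0.0178). It was near the counting floor in GFP libraries and lost its call without Olig1 replicate 2 (adjusted p = 0.0987). Basp1, a membrane protein of growth cones, read 33.6, 97.6 and 93.8 and 728, 1227 and 409.9 CPM (3.77 ± 0.72, adjusted p = 0.0466, 0.152 without replicate 2). Arl2, a small GTPase that works with the tubulin folding cofactors, read 127, 97.2 and 79.1 and 553, 891 and 361 CPM (2.97 ± 0.58, adjusted p = 0.0480, 0.130 without replicate 2). Arl2 and Basp1 were read well in every library of both groups, while Kif5a was nearly unread with GFP. An exon of Batf2 on the other strand covers 51 bases of Arl2.

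Just outside the threshold stood 2 relatives of stathmin. Stmn3 read 103, 69.6 and 174 CPM with GFP and 1153, 3490.4 and 1410.2 CPM with Olig1 (4.62 ± 0.93, edgeR adjusted p = 0.0575), and Stmn4 read 8.15, 2.74 and 9.71 and 155, 129 and 70.7 CPM (4.44 ± 0.90, adjusted p = 0.0609). Both had every Olig1 library above every GFP library. Of 30 genes for the axonal cytoskeleton and transport, 2 were called (Kif5a and Stmn1), 26 had a positive value and the median was 1.65, with 12 at an unadjusted p under 0.05, all higher. Over all genes tested, 49% had a positive value and 8.95% were higher at an unadjusted p under 0.05. Of 21 tested genes of the regeneration-associated list, 2 were called (Basp1 and Mmp12), 19 were positive and the median was 2.71. Gap43, a growth cone protein, read 1.01, 0 and 1.17 CPM with GFP and 626, 163 and 1104 CPM with Olig1 (9.84 ± 2.37, adjusted p = 0.147), and Sox11, a transcription factor of injured and growing neurons, 1.92, 0.109 and 11.8 and 181, 251 and 51 CPM (5.62 ± 1.42, adjusted p = 0.149). Neither passed the test, although the groups did not overlap, and Gap43 in replicate 2 stood at 0.260 of replicate 1. The ganglion and amacrine marker sums given above were higher in the same libraries, and their part in these values was not tested.

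Synapse, transmitter and channel genes made up the next group, with Gad1, C1ql2, Gabbr1, Scn2b and Cplx2 higher. Gad1, which makes the transmitter GABA, read 0.693, 0.0547 and 0.761 CPM with GFP and 1022, 373 and 126 CPM with Olig1, a rise of 10.20 ± 1.67 (log2, edgeR adjusted p = 0.0204, 0.0426 with replicates 1 and 2 summed). Its values spread widely among Olig1 libraries, with replicate 1 highest and replicate 2 at 0.364 of it. C1ql2, a secreted synaptic protein related to complement C1q, had 2 counts over the 3 GFP libraries and 215, 72.1 and 90.7 CPM with Olig1. In replicate 2 C1ql2 stood at 0.336 of the replicate 1 level. The pooled level was 3665 times (95% counting interval 1014 to 30274) that with GFP (adjusted p = 0.0178, 0.0402 without replicate 2). With 1 library left out the ratio ran from 1672 to 4313, and without replicate 3 GFP held 0 counts. Both are on the amacrine marker list, whose other 12 tested members were not called.

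Gabbr1, a subunit of the GABA-B receptor, read 2.88, 3.12 and 1.35 CPM with GFP and 89.8, 43.3 and 55.2 CPM with Olig1 (4.80 ± 0.91, edgeR adjusted p = 0.0462). The lowest Olig1 library was over 10 times the highest GFP library. Scn2b, an accessory subunit of voltage-gated sodium channels, read 0.639, 0.274 and 0.117 and 74.3, 22.7 and 51.8 CPM (7.24 ± 1.29, adjusted p = 0.0300). Without Olig1 replicate 2 the adjusted p was 0.161 for Gabbr1 and 0.0756 for Scn2b. In replicate 2 Scn2b stood at 0.305 and Gabbr1 at 0.482 of the replicate 1 level. Scn2b lay just above the range of 0.15 to 0.3 and Gabbr1 further above it. That range is a chosen window, so how much of either value is shared with replicate 1 cannot be told.

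The complexins, small proteins that clamp the vesicle fusion machinery, moved in opposite directions. Cplx2, the form of conventional synapses, read 0.320, 1.09 and 0.117 CPM with GFP and 95.7, 254 and 50.7 CPM with Olig1, a rise of 8.41 ± 1.36 (log2, edgeR adjusted p = 0.0178). Cplx4, a form of the ribbon synapses of photoreceptors and bipolar cells, read 479.9, 223 and 500.1 and 4.57, 4.55 and 21.4 CPM and fell by 5.19 ± 0.86 (adjusted p = 0.0204). Without Olig1 replicate 2 both missed the threshold (adjusted p = 0.335 and 0.0826). The lists around them differed in sign. Of 25 genes of conventional vesicle release, 23 were positive, 1 was called (Cplx2) and the median was 1.74. Of 14 tested genes of the ribbon synapse, 12 were negative, 1 was called (Cplx4) and the median was -2.18. Syn1, a vesicle phosphoprotein, read 19.7, 7.55 and 13 and 104, 487 and 103 CPM without passing (adjusted p = 0.203), and Stx3, the syntaxin of ribbon synapses, read 647, 306 and 593 and 54, 26.2 and 84.1 CPM (adjusted p = 0.0975). Rod, cone and bipolar marker sums were lower in the same libraries, and their part was not tested.

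Lists of channels and receptors held mostly positive values with few calls. Of 23 tested voltage-gated channel genes, 21 were positive, 1 was called (Scn2b) and the median was 2.30. Kcna1, a potassium channel of axons, had 0 counts with GFP and 8.7, 31.2 and 20.7 CPM with Olig1 (at least 338-fold higher, taking 3 counts over the GFP group, adjusted p = 0.208). Of 19 tested glutamate receptor and scaffold genes, 13 were positive with 0 called and a median of 1.11. Of 21 genes of GABA and glycine signalling, 14 were positive, 1 was called (Gad1) and the median was 0.58. Of the 7 negative members, Gabrr2, a GABA receptor subunit of bipolar cells, read 415, 132 and 328 CPM with GFP and 5.33, 2.63 and 43.7 CPM with Olig1 (-4.06 ± 1.15, adjusted p = 0.196).

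Peptide genes held large ratios and uneven values. Pcsk1, the prohormone convertase that cuts peptide precursors, had 1 count over the GFP libraries and 25, 422 and 23.3 CPM with Olig1. The pooled level was 7208 times (95% counting interval 1293 to 284740) that with GFP (edgeR adjusted p = 0.0480), and replicate 2 alone held most of it: without that library the adjusted p was 0.635. With 1 library left out the ratio ran from 1309.5 to 11150.5, and without replicate 1 GFP held 0 counts. Tac1, the precursor of substance P, stood first below the threshold with 0.320, 0 and 0.234 CPM and 841, 159 and 213 CPM (adjusted p = 0.0537), and its replicate 2 value was 0.189 of replicate 1. Cartpt, another peptide precursor, read 0.107, 0.164 and 3.16 and 1266, 249.9 and 139 CPM (adjusted p = 0.147), with replicate 2 at 0.198 of replicate 1, and Npy 1.39, 3.01 and 10.4 and 22.6, 27.3 and 8889 CPM (adjusted p = 0.309). Npy was high in Olig1 replicate 3 only. Of 18 tested genes of the list, 14 were positive, 1 was called and the median was 1.14.

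Impact, Eef1e1 and Ywhag also rose. Impact competes for the activator of the kinase Gcn2, which slows translation when amino acids run short. It read 146, 82.5 and 69.8 CPM with GFP and 2228, 877 and 435 CPM with Olig1, a rise of 3.76 ± 0.59 (log2, edgeR adjusted p = 0.0178, 0.0255 without replicate 2). Asns, the asparagine synthetase that this kinase pathway is known to raise, read 22.2, 16.3 and 17.8 and 616, 308 and 98.9 CPM (4.42 ± 0.87) and missed the threshold (adjusted p = 0.0537). Eef1e1, a scaffold of the tRNA synthetase complex, read 14.3, 12.5 and 31.2 and 133, 547 and 152 CPM (4.39 ± 0.85, adjusted p = 0.0475, 0.233 without replicate 2). Ywhag, an adaptor of the 14-3-3 family, read 26.9, 14 and 6.32 and 182, 311 and 143 CPM (4.16 ± 0.80, adjusted p = 0.0475, 0.166 without replicate 2). Impact and Asns peaked in replicate 1, and Eef1e1 and Ywhag in replicate 2.

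Around these, most stress genes did not pass. Of 23 tested genes of the integrated stress and unfolded protein response, 1 was called (Impact), 14 were positive and the median was 0.32. Ddit3, the factor CHOP of that response, read 125, 17.6 and 79 CPM with GFP and 326, 1622 and 235 CPM with Olig1 (edgeR adjusted p = 0.0975), with replicate 2 far above the others. Of 21 tested genes of stress kinases and cell death, 0 were called and 15 were positive (median 0.91, 5 at an unadjusted p under 0.05). Of 19 tested immediate early genes, 0 were called and 18 were positive (median 1.41, 6 at an unadjusted p under 0.05). All 5 and all 6 of these were higher, against 8.95% of all genes tested. Egr4, a zinc finger factor of this list, had 0 counts with GFP and 206, 41.1 and 5.54 CPM with Olig1 (at least 1730.2-fold higher, taking 3 counts over the GFP group, adjusted p = 0.0795), with replicate 2 at 0.200 of replicate 1, and Jun read 6.77, 8.1 and 27 and 252, 163 and 150.05 CPM (adjusted p = 0.274). Cdkn1a, a brake of the cell cycle, read 0.373, 1.42 and 0.234 and 124, 260.2 and 156 CPM (adjusted p = 0.179), while 15 of 19 tested cell cycle genes were negative (median -2.20, 0 called).

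A pair of noncoding or host transcripts were abundant and rose. Snhg11 (ENSMUSG00000044349, chr2:158375638-158386145), a host gene of small nucleolar RNAs known from neurons, read 427, 277 and 336 CPM with GFP and 8735, 1876 and 1762 CPM with Olig1, a rise of 3.67 ± 0.58 (log2, edgeR adjusted p = 0.0178, 0.0255 without replicate 2). Meg3, a maternally expressed long noncoding RNA, read 230.2, 79.4 and 220.4 and 1906, 526 and 1336 CPM, a rise of 2.95 ± 0.53 (adjusted p = 0.0300, 0.0255 without replicate 2). In both genes the lowest Olig1 library was above the highest GFP library by more than the spread among GFP libraries.

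Nrip3 and Zcchc12 each had 2 counts over the GFP libraries. Nrip3 read 34.1, 449.8 and 34 CPM with Olig1, 4006 times (95% counting interval 1108 to 33084) the GFP level (edgeR adjusted p = 0.0428, 0.590 without replicate 2). The ratio of Nrip3 ran from 921 to 6081 with 1 library left out. Zcchc12 read 147, 46.5 and 64.1 CPM, 2504 times (95% counting interval 693 to 20685) the GFP level (edgeR adjusted p = 0.0462, 0.120 without replicate 2). The ratio of Zcchc12 ran from 1142 to 2975 with 1 library left out, and its replicate 2 value was 0.317 of replicate 1. Without GFP replicate 3, which held both counts of each gene, GFP held 0. Such intervals cover counting error only, and the spread between pools is larger. Gstm6, a glutathione transferase of the mu class with close relatives whose reads may be shared, read 0.0533, 0.0547 and 0.176 CPM with GFP and 51.9, 235 and 27.2 CPM with Olig1 (10.63 ± 1.85, adjusted p = 0.0283, 0.291 without replicate 2). It was the only call among 28 tested glutathione and antioxidant genes.

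Mmp12, a metalloelastase best known from macrophages, read 0, 0.0547 and 0.234 CPM with GFP and 96.9, 21.6 and 275 CPM with Olig1 (10.31 ± 1.76, edgeR adjusted p = 0.0466, 0.0666 without replicate 2). Microglia and macrophage markers summed to 23.9, 26.9 and 1377 CPM in GFP libraries and to 36.7, 27.5 and 1012 CPM in Olig1 libraries. The part of these cells in the Mmp12 values was not tested. Of 13 tested markers of this list, 0 were called, and the groups overlapped in every one. Over all genes tested, 0.227% were called and the groups lay apart in only 18.4%. Counts this near those shares are not read as a result about these cells. H2-Aa, which presents antigen on such cells, read 0, 0.0547 and 1.29 and 7.61, 3.03 and 394 CPM (adjusted p = 0.278).

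Bipolar and rod genes fell to a small part of their level with GFP. Trpm1 (ENSMUSG00000030523, chr7:64153835-64269775), the transduction channel of ON bipolar cells, read 704, 397 and 516 CPM with GFP and 9.13, 7.5 and 23.7 CPM with Olig1 and fell by 5.19 ± 0.66 (log2, edgeR adjusted p = 0.0113, 0.0123 to 0.0418 over the 6 fits without 1 library). Pde6g, the inhibitory subunit of the rod phosphodiesterase, read 6945, 3362 and 9055 and 106, 82.2 and 155 CPM and fell by 5.61 ± 0.86 (adjusted p = 0.0178). Guca1b, an activator of the photoreceptor guanylate cyclase, read 1299, 175 and 1384 and 16.7, 10.4 and 32.8 CPM and fell by 5.40 ± 0.87 (adjusted p = 0.0178). Cngb1, which forms part of the cation channel that cyclic GMP opens in rods, read 643, 124 and 377 and 4.24, 4.71 and 12.6 CPM and fell by 5.51 ± 0.96 (adjusted p = 0.0283). The rod genes varied most among GFP libraries, where replicate 2 was the lowest for each of them. Without Olig1 replicate 2 the adjusted p was 0.130 for Pde6g, 0.0666 for Guca1b and 0.0987 for Cngb1.

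Among genes that support photoreceptors, Nxnl2, Nxnl1 and Rpgrip1 fell. Nxnl2, a thioredoxin-like factor linked to cone survival, read 152, 58.5 and 81.4 CPM with GFP and 1.14, 1.6 and 0.608 CPM with Olig1 and fell by 6.04 ± 0.96 (log2, edgeR adjusted p = 0.0178, 0.0255 without replicate 2). Its relative Nxnl1 read 125, 58 and 196 and 1.96, 2.31 and 3.18 CPM and fell by 5.39 ± 0.92 (adjusted p = 0.0270). Rpgrip1, which anchors proteins at the photoreceptor cilium, read 278, 179 and 203 and 12.2, 4.55 and 15.6 CPM and fell by 4.27 ± 0.82 (adjusted p = 0.0475). Rpgrip1 shares 1057 exon bases with Supt16 on the other strand, and the strand setting of the counting is not given in the sources used here. Of 22 genes on the list of rod and cone support factors, 4 were called (Nxnl1, Nxnl2, Rpgrip1 and Guca1b) and 22 were negative, with a median of -4.67. This list was drawn up with the fall of such genes in these libraries known. Rod markers had negative values in 15 of 15 genes, with the groups apart in each. Over all genes tested, the groups lay apart with Olig1 lower in 9.01%. The part of rod, cone and bipolar RNA in the falls of these lists was not tested.

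The other lower genes are not specific to the light response. Sgk1 (ENSMUSG00000019970, chr10:21882184-21999903) encodes a kinase that glucocorticoids and cell stress are known to raise. It read 455, 463 and 128 CPM with GFP and 7.66, 3.27 and 6.08 CPM with Olig1 and fell by 5.85 ± 0.80 (log2, edgeR adjusted p = 0.0113, 0.0255 without replicate 2). It missed the threshold in 1 of the 6 fits without 1 library (adjusted p = 0.0583 without GFP replicate 1). Of 20 tested glucocorticoid-responsive genes it was the only call and its median changed sign between fits (-0.33 in the fit of all libraries, -0.91 to 0.49 over the alternatives). Tsc22d3, another gene of that list, read 17.8, 69.4 and 9.77 and 59.1, 243 and 31 CPM, with overlapping groups. Sgk1 stood apart from most of its list in size.

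Sparc, a secreted protein of the extracellular matrix, read 934, 2355 and 1069.7 CPM with GFP and 142, 134 and 249 CPM with Olig1 and fell by 2.94 ± 0.52 (log2, edgeR adjusted p = 0.0300). Mfge8, a secreted protein that bridges dying cells to phagocytes, read 1074, 665 and 667 and 108, 24.3 and 61.4 CPM and fell by 3.57 ± 0.63 (adjusted p = 0.0298). Plekhb1, a membrane-bound protein abundant in photoreceptors, read 1555, 1226 and 954 and 50.3, 20.9 and 154 CPM and fell by 4.04 ± 0.65 (adjusted p = 0.0178). In Sparc, Mfge8 and Plekhb1 the lowest GFP library was above the highest Olig1 library. Gzmm, a granzyme protease of lymphocyte granules, read 39.6, 40.9 and 153 and 1.69, 0.718 and 3.51 CPM and fell by 5.22 ± 0.99 (adjusted p = 0.0466), while T cell markers summed to 0.12 CPM or less in each of the 6 libraries. Without Olig1 replicate 2 the adjusted p was 0.0666 for Sparc, 0.0826 for Mfge8, 0.0666 for Plekhb1 and 0.166 for Gzmm.

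The 10 genes next in order of p included Tac1, Asns, Stmn3 and Stmn4, given above, and 6 others. Tfap2b, a transcription factor of amacrine cells, read 122, 87.2 and 73.1 CPM with GFP and 702, 437 and 622 CPM with Olig1 (2.82 ± 0.56, edgeR adjusted p = 0.0567). Rims3, a protein of the presynaptic active zone, had 1 count with GFP and 65.1, 34.6 and 38 CPM with Olig1 (adjusted p = 0.0766). On the lower side, Gnat1, the rod transducin, read 14275, 1927 and 11679.8 and 129, 98 and 119.8 CPM (-6.04 ± 1.14, adjusted p = 0.0567). Cd9, a membrane tetraspanin, read 885, 1011 and 1487 and 63.9, 22.4 and 248 CPM (-3.35 ± 0.68, adjusted p = 0.0609). Car14, a carbonic anhydrase of the cell surface that is also on the Müller glia marker list, had a value of -3.58 ± 0.75. Mpp4, a scaffold of photoreceptor terminals, had -5.73 ± 1.21 (edgeR adjusted p = 0.0766 for both). In all 6 the groups lay apart, against 18.4% of all genes tested, but the 6 were chosen for their small p. None of the 10 passed.

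Genes of Müller glia, the support cells of the retina, had mostly negative values, and none passed the test of edgeR. Aqp4, their water channel, read 486, 367 and 443 CPM with GFP and 113, 29.9 and 126 CPM with Olig1 (-2.22 ± 0.55, edgeR adjusted p = 0.121). Clu, a secreted chaperone, read 19391, 40222 and 15551 and 4671, 6754 and 5703 CPM (-1.89 ± 0.48, adjusted p = 0.143). Glul, which turns glutamate into glutamine, read 3769.5, 5081 and 4666 and 245, 936 and 543 CPM (-2.56 ± 0.69, adjusted p = 0.178). Slc6a6, the taurine transporter, and Slc1a3, the glial glutamate transporter, likewise had every Olig1 library below every GFP library (adjusted p = 0.103 and 0.254). Of 15 Müller glia markers, 12 were negative with a median of -1.63, 0 were called and 9 had an unadjusted p under 0.05. All 9 of them were lower, against 5% of all genes tested. The smallest p of these markers was that of Car14, given above (edgeR adjusted p = 0.0766). Their summed level overlapped between groups, at 77826 to 148499 CPM with GFP and 49278 to 129874 CPM with Olig1. Apoe, a lipid carrier that makes up a large part of that sum, read 38975, 92593 and 55909 and 40505, 115723 and 45142 CPM.

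The lists of energy metabolism, protein making and protein breakdown held 0 calls apart from Eef1e1, described above. Of 83 tested nuclear genes of oxidative phosphorylation, 73 were positive with a median of 0.92, 31 at an unadjusted p under 0.05 on the higher side and 1 on the lower. Over all genes tested, 8.95% passed that threshold on the higher side and 5% on the lower. Cytosolic ribosomal proteins (79 tested, 66 positive) had a median of 0.72, proteasome subunits (37 tested, 30 positive) 0.77 and cholesterol synthesis (22 tested, 18 positive) 1.50. Glycolysis genes split. Ldhb, a lactate dehydrogenase subunit, read 836, 706 and 569 CPM with GFP and 2066, 1939 and 1694 CPM with Olig1 (1.69 ± 0.39, edgeR adjusted p = 0.102), and Eno1, an enolase, 28502, 43265 and 29263 and 17686, 9094 and 14722 CPM (-1.17 ± 0.30, adjusted p = 0.145). Neither pair of groups overlapped, and neither gene passed. Of 28 tested interferon response genes, 18 were negative and 10 positive (median -0.38, 0 called), where 49% of all genes tested were positive. Ifit3 read 658, 575 and 105 CPM with GFP and 51.6, 13 and 72.6 CPM with Olig1 (edgeR adjusted p = 0.275).

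Across the 58 lists with a tested gene, 25 medians changed sign in at least 1 of the 16 alternative fits. Of the lists given above, these included the glutathione, glucocorticoid, glycolysis and microglia lists and that of translation factors, which holds Eef1e1. They also included the extracellular matrix list, which holds Mmp12 and Sparc, and the antigen presentation list, which holds H2-Aa. No direction is read for any list whose median changed sign. The medians ran from 1.41 to 2.09 for the axonal cytoskeleton, 2.14 to 4.06 for regeneration-associated genes, 1.23 to 1.92 for conventional release, -3.08 to -1.75 for the ribbon synapse, 1.88 to 3.85 for voltage-gated channels and -5.70 to -4.24 for support factors. They ran from 0.55 to 1.17 for oxidative phosphorylation, 0.15 to 1.02 for ribosomal proteins and 1.13 to 3.19 for immediate early genes. Every median given was the same to 2 decimals with genes of 0 counts in a group set at their bound and genes of 1 to 3 counts at their pooled ratio.

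**Figure D4:**
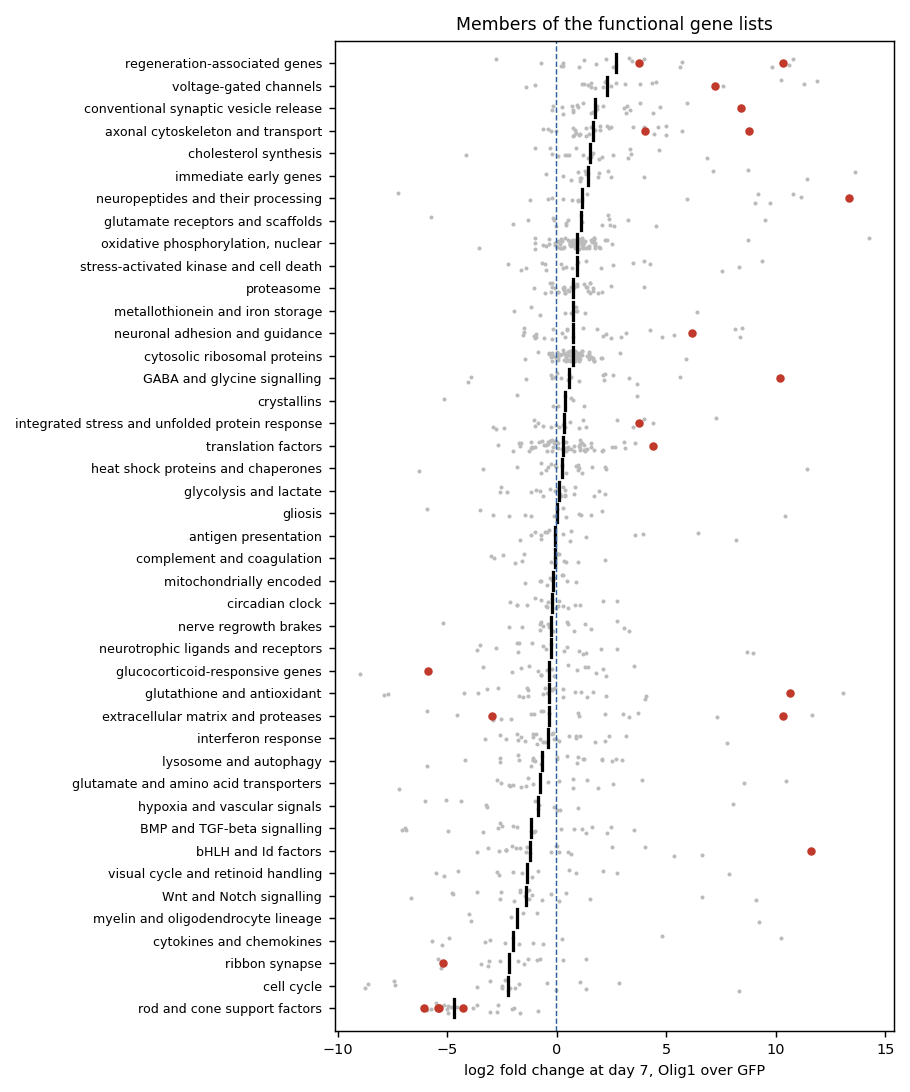
Rows are the 43 functional gene lists ordered by median (black bar), points are the tested members by log2 fold change of Olig1 over GFP, red points are called genes, and the dashed line is the median over all genes, -0.03. Lists of neuronal structure stand at the top, with a median of 2.71 for regeneration-associated genes, and rod and cone support factors at the bottom with -4.67.

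At 14 days after the crush, in other libraries, most of the 34 genes leaned the same way by less. The same sign was seen in 30 of 34 (18 of 21 higher, 12 of 13 lower) against 53.6% of all genes. In size 31 were smaller, and 4 were called at both days: Olig1, Trpm1, C1ql2 and Gad1. The counts of sign and size include genes with 3 or fewer counts in a day 14 group, whose fitted values are no measured ratios. Of the 27 drawn genes above that limit, 24 kept their sign and 27 were smaller. Trpm1 read 1407, 946 and 284 CPM with GFP and 79.4, 37.5 and 29.3 CPM with Olig1 at day 14 (-4.08 ± 0.63). Gad1 read 0, 0 and 0.0418 and 154, 1.79 and 76 CPM, and C1ql2 0, 0 and 0 and 35, 2.73 and 58 CPM. All 3 kept their groups apart at both days. Stmn1 read 153, 132 and 64.2 and 355, 1702 and 397 CPM (2.88 ± 0.61), again without overlap. Over all genes the groups lay apart at day 14 in 11.9% (7.78% with Olig1 higher and 4.12% with it lower), and 6 genes (0.04%) were called. Of the 34 genes, 19 kept their sign with an unadjusted p under 0.05 at day 14 (10.4% of all genes passed at day 14, and 2.17% passed at both days with the same sign).

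Other genes had values near 0 at day 14. Sgk1 read 105, 61.5 and 87.8 CPM with GFP and 109.8, 25.2 and 58.2 CPM with Olig1 at day 14 (-0.45 ± 0.65), Mfge8 524, 175 and 104 and 388, 143 and 338 CPM (0.20 ± 0.57), and Sparc 576, 364 and 292 and 432, 339 and 288 CPM (-0.20 ± 0.48). In all of these the groups overlapped at day 14. Cplx2 read 3.45, 8.44 and 1.71 and 3.63, 1.67 and 1.33 CPM (-0.98 ± 1.00), Gstm6 18.4, 9.02 and 8.6 and 0.145, 20 and 12.6 CPM (-0.11 ± 1.21), and Mmp12 had 0 counts in all 6 libraries of day 14. The difference between the days, tested as an interaction, was called in 0 of 14985 genes (edgeR, smallest adjusted p = 0.142). At an unadjusted p under 0.05, 1484 genes (9.9%) differed. DESeq2 called 527. The 34 genes were chosen for their day 7 change, which the difference between days contains, so smaller values at day 14 follow in part from that choice. For Cplx2 the difference between days was -9.39 ± 1.63 (edgeR adjusted p = 0.249), and for Sgk1 it was 5.40 ± 0.98 (adjusted p = 0.264).

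**Figure D5:**
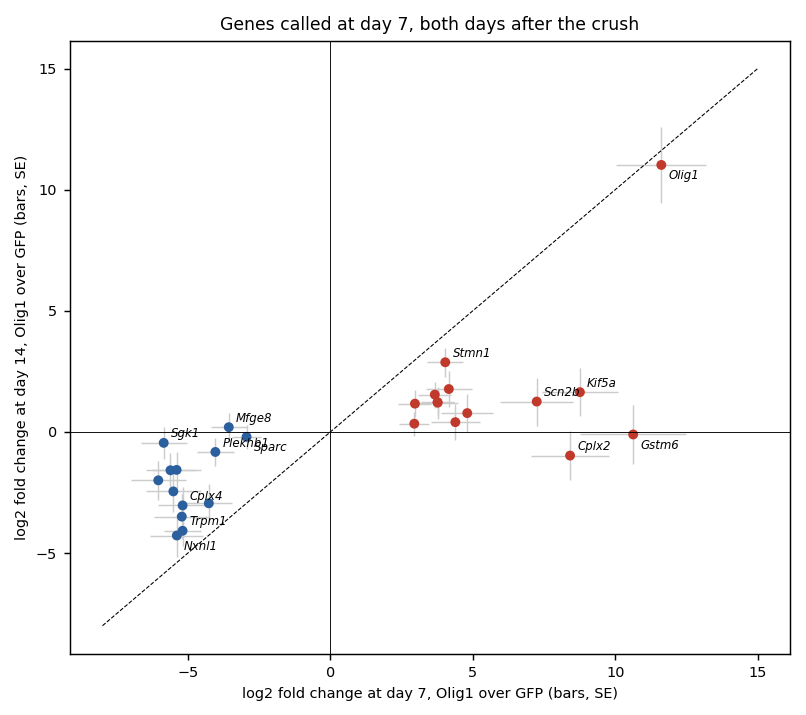
Points are 27 of the 34 genes called at day 7 (6 others had 3 or fewer counts in a group at day 14), with the log2 fold change of Olig1 over GFP at day 7 on the x axis and at day 14 on the y axis, bars showing SE and the dashed line equal values. All 27 lie nearer to 0 on the day 14 axis, with Olig1 at 11.02 ± 1.57 and Sgk1, Mfge8, Sparc and Gstm6 close to 0.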

How the data were processed

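The study made 12 libraries (4 groups of 3), and the 6 of day 7 are compared. The authors deposited raw counts per gene, and per the submitters' processing notes FastQC, HISAT2, HTSeq and mm10 were used. No version or strand setting is given in the sources used here. Of 54232 genes, 54165 matched GENCODE M21. Where both tables hold a gene, the per-sample count files equalled the series table in every gene. Of the per-sample files 4 end early, so all values come from the series table.

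Counts of all 12 libraries entered 1 model with 4 groups in edgeR 4.0.16 (R 4.3.3): TMM scaling, a filter on counts of 10 by group, a robust quasi-likelihood test and Benjamini-Hochberg adjustment, called under 0.05. SE is the log2 fold change over the square root of F. CPM divides by the library total. Genes with 1 to 3 counts in a group have a pooled ratio with an exact 95% binomial interval, and a count of 0 is bounded at 3 counts. Alternatives used DESeq2 1.42.0 and limma 3.58.1, other scalings and filters, the day 7 libraries alone, and libraries left out. Python 3.11.15, pandas 2.3.3, scipy 1.17.1 and matplotlib 3.10.9 made the tables and plots. The fit was tested on simulated data.

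Genes were named where called, among the 10 next by p, or in a list (called members, or up to 2 with the smallest p). Cartpt, Gabrr2, Gap43, Jun, Kcna1, Npy, Slc1a3, Sox11, Stx3, Syn1 and Tsc22d3 were chosen after their values were seen. The members and the 60 lists were chosen with earlier results of these data known. The labels speak of batches without saying which library was in which, so no value within a batch is given. Of the called genes, 1 is counted, but not reported here by name or drawn by row.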

Additional observations from a re-analysis of the deposited data

How the results depend on the processing

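Counts of calls moved with the test and with single libraries, and the cause was not tested. Against 34 genes called (21 higher, 13 lower), DESeq2 called 930 (553 higher, 377 lower), limma voom with sample weights 409 (311 and 98) and edgeR with no filter on low counts 218 (157 and 61). The stricter filter called 34, library totals in place of TMM 35, DESeq2 size factors 24, and the day 7 libraries alone 28, of which 7 were lower and 11 were among the 34. Leaving out 1 library called 1 to 58 genes (0 to 37 higher, 1 to 21 lower), and leaving out replicate 3 of both groups 0, 0 higher and 0 lower. With Olig1 replicates 1 and 2 summed, chosen after seeing the data, 10 were called (6 higher, 4 lower). With the replicate block, the pairing by number in the labels, 29 genes were called, 23 of them among the 34. Same-numbered day 7 libraries correlated at 0.0187, 0.0441 and 0.0156 in their deviations from the group mean. These values are small, yet each day 7 library correlated best with its own number. At day 14 same-numbered libraries correlated at -0.0307, -0.0389 and -0.0507, and each library correlated least with its own number. Whether the numbers pair libraries cannot be told from 3 libraries per group. The difference between days was called in 0 genes, in 527 by DESeq2, 40 with no filter and 1 with the replicate block. Single genes of the lists changed sign. With 1 or 2 libraries left out, Mbp ran from -4.79 to 1.37, Hbb-bs from -0.59 to 5.06, Jchain from -7.69 to 1.67, Crygn from -6.46 to 0.34, Apoe from -0.72 to 1.06 and CT010467.1 from -0.27 to 1.41; the values on the other side of 0 came without GFP replicate 3 for Mbp, GFP replicate 2 for Jchain and Crygn, and Olig1 replicate 2 for Hbb-bs, Apoe and CT010467.1. By voom, Hbb-bs was -0.80 and Apoe -0.050, and with Olig1 replicates 1 and 2 summed Apoe was -0.15. The 34 called genes kept their sign in all 16 alternatives, which is no separate support, as their groups lay apart in the same libraries. Depth of 12534515 counts or more per library limits values near 0.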

Other observations

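Red blood cell markers summed to 2629.7 CPM in Olig1 replicate 2 and to 14.0 to 121 CPM in the other 5 day 7 libraries. Npy, which encodes the peptide neuropeptide Y, stood at 8889 CPM in Olig1 replicate 3 and at 27.3 CPM or less in the other 5. Mitochondrially encoded genes held 5.11% to 6.34% of counts in GFP libraries and 2.74%, 2.51% and 7.45% in Olig1 replicates 1, 2 and 3. Apoe alone held 11.6% of the counts of Olig1 replicate 2 and 3.9% to 9.26% of those of the other 5 libraries. At day 14, 17 genes at or above 20 CPM in Olig1 replicate 2 and under 1 CPM in 10 other libraries stood in replicate 3 at a median of 0.0214 of that level, with 0 of the 17 at 0.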
